A study of Mus musculus with 6 samples.

Results

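The collagen genes were taken as every entry of the deposited gene table whose symbol has the form of a collagen chain (Col, a type number, the letter a and a chain number), with Col17a1 left out. This gave 42 of 23358 entries. The rule used the symbol alone, but was set with earlier results of these data known. The 42 genes comprised 8 chains of fibrillar collagens, 6 of beaded filament collagens and 9 of basement membrane collagens. There were 6 chains of FACIT collagens, 7 of cartilage collagens and 6 classed as short chain or transmembrane. Col28a1 was placed in the last class, although it is neither. RNA was sequenced from the tumors of 6 female mice, 1 tumor a mouse, all carrying the NT3 allele, a form of the NF-κB inducing kinase that lacks its TRAF3-binding domain and sits behind a floxed STOP cassette in the ROSA26 locus. In 3 tumors (13, 18 and 25, by mouse number) the cassette was excised by Osx-Cre, which is driven by the promoter of an osteoblast lineage factor and is shut off by doxycycline, given until weaning. In the other 3 (27, 29 and 36) it was excised by FSP1-Cre, whose promoter is active mainly in fibroblasts and also in myeloid cells. NT3 mice were C57Bl/6J, Osx-Cre mice were of mixed C57Bl/6J and CD1 background and FSP1-Cre mice were FVB/n. All 3 Osx-Cre;NT3 tumors came from the trunk, with latencies of 150, 168 and 115 days. Tumors 27 and 36 were perineal and tumor 29 was from the trunk, with latencies of 101, 52 and 72 days. Line, strain background, doxycycline feeding and latency therefore cannot be told apart, and site can be separated from line only through tumor 29. The study's mean RNA integrity score was lower for Osx-Cre;NT3 than for FSP1-Cre;NT3 tumors, and its part in the values was not tested. Controls without Cre and benign tissues were not analysed here.

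Collagens are extracellular proteins in which chains wind into a shared helix. Fibrillar collagens form the tension-bearing fibrils of skin, tendon and bone, and in skin and in tumor stroma they are made mainly by fibroblasts. Type IV collagen is the network of basement membranes beneath epithelia and around vessels, type VI forms beaded filaments around cells, and FACIT collagens, the fibril-associated collagens with interrupted helices, lie on fibril surfaces. Types II, IX, X and XI are characteristic of cartilage and were classed so here, although types II and XI also form fibrils. Chains are hydroxylated and folded in the endoplasmic reticulum, and fibrillar collagens are then trimmed and crosslinked outside the cell.

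The total counts ranged from 51824408 to 163297772 per tumor, and counts on collagen genes made up 0.798% to 1.00% of them in Osx-Cre;NT3 tumors and 1.68% to 2.1% in FSP1-Cre;NT3 tumors. Every deposited count was even. Markers of basal keratinocytes, summed over 6 genes in CPM (counts scaled to library size, with TMM scaling between libraries), lay between 5777 and 14519, and markers of fibroblasts, summed over 8 genes, between 192 and 739. Both lists were therefore detected in all 6 tumors. The 7 osteoblast markers summed to 15.5 to 52.7 CPM. Most of this was Spp1 (5.19 to 39.6 CPM) and Runx2 (4.77 to 9.85 CPM), which are not limited to osteoblasts, and Alpl reached 3.63 and Dmp1 1.13 CPM. Sp7, the gene that encodes Osx, reached at most 0.282 CPM, and Bglap and Ibsp were at most 0.125 CPM. In whole tumors, fewer cells of a type and less RNA per cell cannot be told apart.

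Promoter sequences of 3 of the chains with the most RNA in their class are shown first, because genes of those classes were higher together in 1 line. They are the 250 bases before the transcription start in RefSeq (build GRCm38.p6), written 5′ to 3′ on the strand of the gene. Capitals mark the CCAAT box (CCAAT), the GC box (GGGCGG) and the TATA box (TATAAA), searched on both strands. They were chosen after the values had been seen.
Col1a2, chr6:4505368-4505617, plus strand: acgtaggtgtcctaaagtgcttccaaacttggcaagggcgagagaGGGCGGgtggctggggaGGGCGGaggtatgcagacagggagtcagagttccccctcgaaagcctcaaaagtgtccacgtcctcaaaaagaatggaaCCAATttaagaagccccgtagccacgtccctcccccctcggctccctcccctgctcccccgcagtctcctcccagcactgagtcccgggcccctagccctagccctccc
Col3a1, chr1:45311288-45311537, plus strand: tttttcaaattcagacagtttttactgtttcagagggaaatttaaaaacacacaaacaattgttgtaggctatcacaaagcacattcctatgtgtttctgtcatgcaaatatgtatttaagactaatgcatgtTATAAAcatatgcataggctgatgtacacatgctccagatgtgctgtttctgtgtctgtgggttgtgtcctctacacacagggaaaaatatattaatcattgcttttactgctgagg
Col6a1, chr10:76726045-76726294, minus strand: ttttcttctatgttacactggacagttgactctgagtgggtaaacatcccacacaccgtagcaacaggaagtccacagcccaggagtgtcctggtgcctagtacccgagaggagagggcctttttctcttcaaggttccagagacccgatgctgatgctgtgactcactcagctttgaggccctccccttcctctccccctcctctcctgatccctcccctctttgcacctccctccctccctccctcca
The window of Col1a2, a chain of type I collagen, held 1 CCAAT box and 2 GC boxes, that of Col3a1 held 1 TATA box, and that of Col6a1 held none of the 3. RefSeq windows were found for 34 of the 42 genes, 37 windows in all. A CCAAT box was present in 32.4% of these windows and in 33.8% of the windows of all genes, and a TATA box in 10.8% and 12.4%. The GC box was present in 59.5% against 32.7%. The outline of the sites bound by NF-κB, GGG and CC with any 5 bases between them, was present in 73.0% against 45.8%. Base composition was not matched in these shares, which describe letters and not binding.

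Collagen RNA was dominated by few chains. On the length-corrected RPKM scale, which allows genes to be compared, 16 of the 42 genes had a mean of at least 10 RPKM over the 6 tumors and 15 had a mean below 1 RPKM. The chains of types I and III ranked highest: Col3a1 (548 ± 230 RPKM, SD, n = 6), Col1a2 (447 ± 183 RPKM) and Col1a1 (368 ± 201 RPKM). They were followed by Col6a1 (133 ± 77.8 RPKM), Col6a2 (114 ± 72.2 RPKM) and the type IV chain Col4a1 (92.8 ± 40.0 RPKM). The SD of each of these covers both lines.

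**Figure D1:**
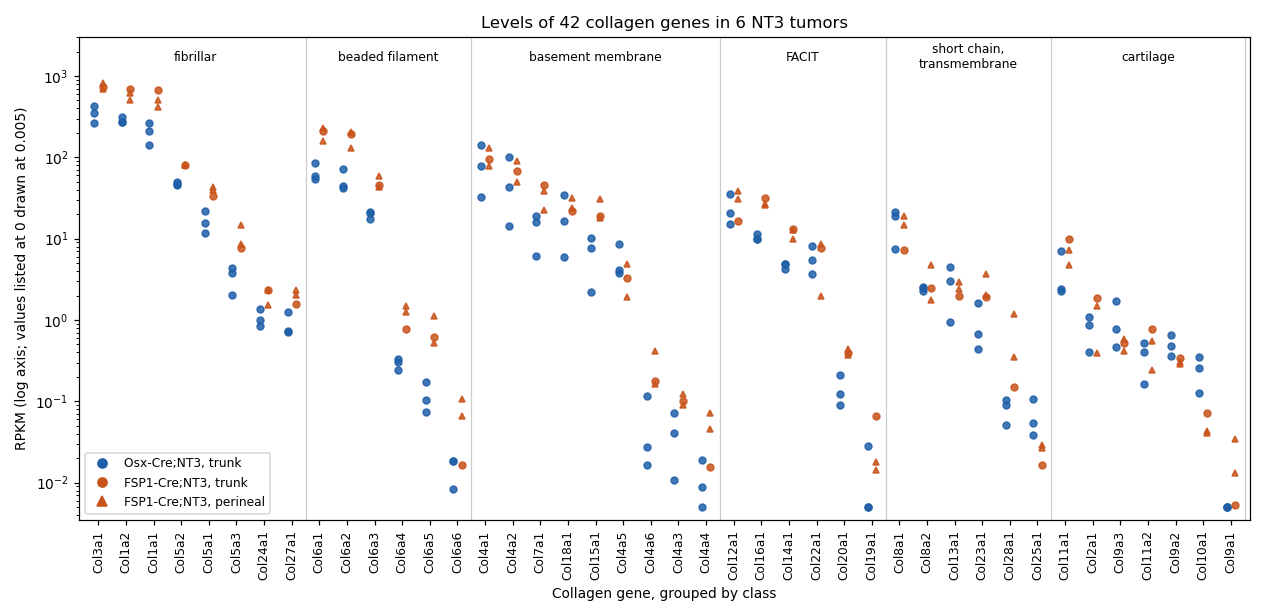
RPKM on a log axis for each of the 42 collagen genes in the 6 tumors, grouped by class and ordered within a class by mean level. Each point is 1 tumor, blue for Osx-Cre;NT3 and orange for FSP1-Cre;NT3, circles for trunk and triangles for perineal tumors. The orange points lie above the blue ones for all 8 genes of the fibrillar class and 5 of the 6 beaded filament genes.

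The summed RPKM of the fibrillar genes was 944, 907 and 881 in Osx-Cre;NT3 tumors 13, 18 and 25, and 1945, 2235 and 1874 in FSP1-Cre;NT3 tumors 27, 29 and 36. The lines did not overlap, and the means of 911 ± 31.6 and 2018 ± 191 RPKM (SD, n = 3 each) differed by a ratio of 2.22. The summed beaded filament genes were 180, 118 and 120 RPKM against 493, 450 and 339 RPKM, a ratio of means of 3.07, again without overlap. These RPKM carry no TMM scaling. Recomputed with TMM-scaled sums of gene counts as library sizes, the means were 1180 and 2442 RPKM for fibrillar genes. For beaded filament genes they were 181 and 514 RPKM. Those sums are smaller than the library totals behind the deposited RPKM, which raises the values of both lines. The basement membrane genes summed to 168, 65.1 and 313 RPKM against 325, 254 and 195 RPKM. Here the lines overlapped, and the sum in tumor 18 was the lowest of all 6. FACIT genes averaged 44.8 ± 11.6 against 75.3 ± 7.51 RPKM, cartilage genes 6.76 ± 3.09 against 9.92 ± 3.66 RPKM, and short chain and transmembrane genes 22.2 ± 7.56 against 22.1 ± 7.67 RPKM. The fibrillar share of all collagen RPKM was 70.2% ± 7.78 in the first line and 71.9% ± 3.93 in the second, and the lines overlapped.

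**Figure D2:**
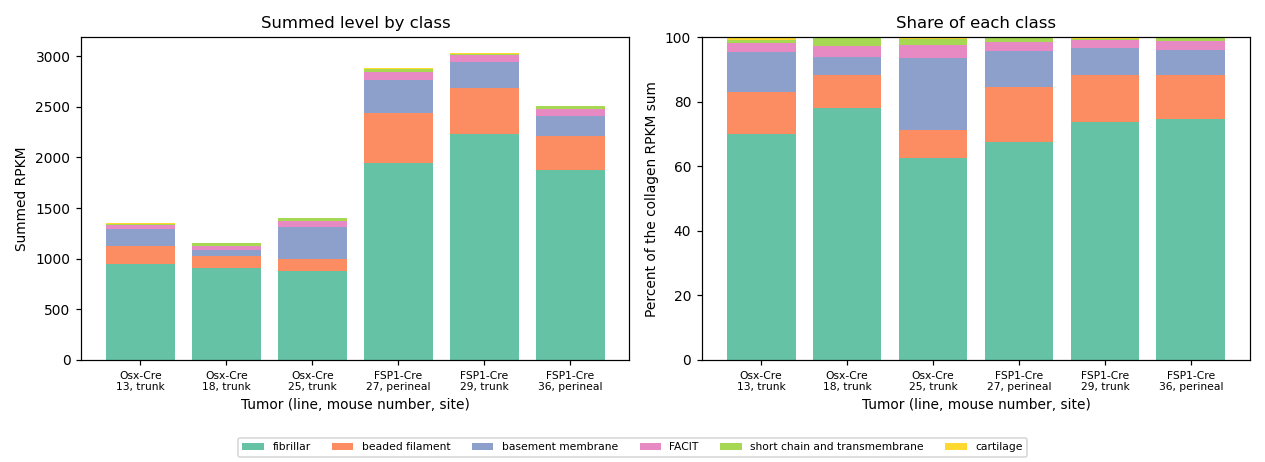
Summed RPKM of the collagen genes by class (left) and each class as a percent of the collagen sum (right), 1 bar for each tumor. The whole sum was 1160 to 1406 RPKM in Osx-Cre;NT3 and 2510 to 3036 RPKM in FSP1-Cre;NT3 tumors, while the fibrillar share ranged from 62.7% to 78.2% across both lines.

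Chains that share a molecule were compared by their ratio within each tumor. The ratio of Col1a1 to Col1a2, which join in type I collagen with a surplus of the former, was 0.792 ± 0.177 on the RPKM scale (SD, n = 6) and ranged from 0.520 in tumor 18 to 0.980 in tumor 29. The ratio of Col6a1 to Col6a2 was 1.20 ± 0.0964 and was above 1 in every tumor. Col4a1 to Col4a2, which join in the common form of type IV collagen, gave 1.66 ± 0.343, with the highest ratio, 2.30, in tumor 18. Col5a1 to Col5a2 gave 0.409 ± 0.105. The ratios depend on the gene lengths used for RPKM, and those of the lines overlapped for Col1a1 to Col1a2, for Col4a1 to Col4a2, for Col6a1 to Col6a2 and for Col5a1 to Col5a2.

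The comparison of the lines asked whether tumors started by the different Cre drivers differed in collagen RNA. At an adjusted p under 0.05 (edgeR quasi-likelihood test, Benjamini-Hochberg over 16415 genes) 0 collagen genes and 0 of all genes passed, a background of 0%, and the smallest adjusted p of a collagen gene was 0.359, for Col16a1. At an unadjusted p under 0.05, 24 of the 41 collagen genes tested were past the threshold, 58.5%, against 10.8% of all genes tested. Of these 22 were higher in FSP1-Cre;NT3 tumors, where the background was 7.31%, and 2 were lower, where it was 3.47%. DESeq2 called 16 of 41 collagen genes at an adjusted p under 0.05, 15 higher and 1 lower, against 2.74% of all genes (2.36% higher and 0.376% lower). The median log2 fold change over the 41 genes was 1.04, against 0.015 over all genes tested, and 33 of 41 were above 0, against 51.1% of all genes. Between the lines 21 genes did not overlap in CPM and were higher in FSP1-Cre;NT3, with a background of 9.03%, and 3 were lower, with a background of 7.97%.

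**Figure D3:**
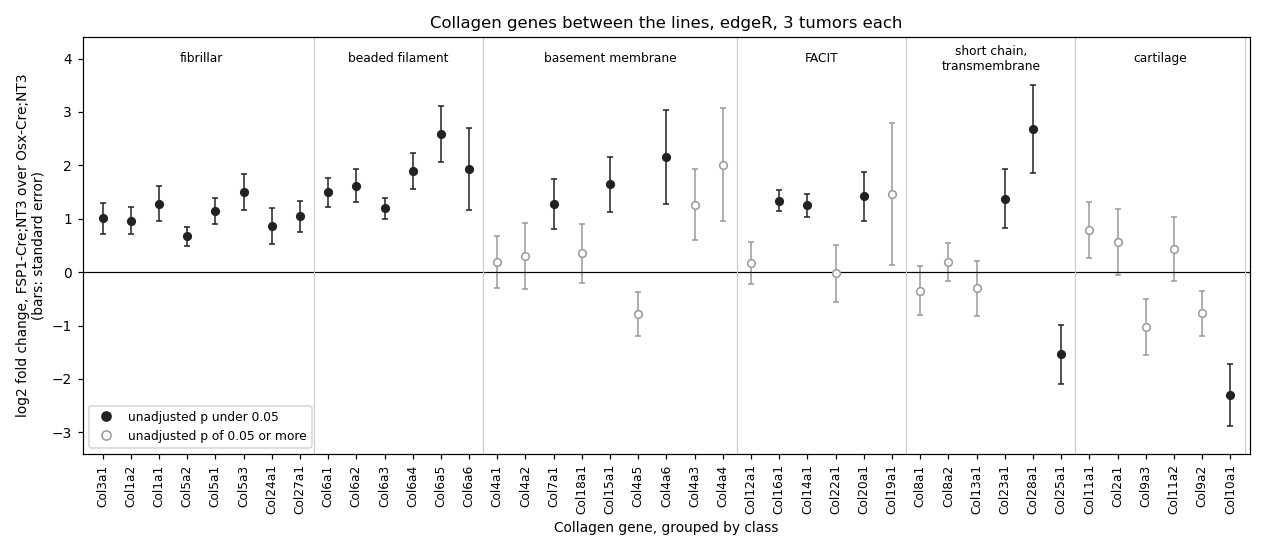
Log2 fold change, FSP1-Cre;NT3 tumors over those of Osx-Cre;NT3 (edgeR, 3 tumors each) for the 41 collagen genes tested, grouped by class, with bars of 1 standard error. Filled points had an unadjusted p under 0.05. They include all 8 genes of the fibrillar class and all 6 beaded filament genes, which lie above 0. The filled points of Col10a1 and Col25a1 lie below it.

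All 8 genes of the fibrillar class had higher values in FSP1-Cre;NT3 tumors at an unadjusted p under 0.05, against 7.31% of all genes. Col2a1, Col11a1 and Col11a2, fibril-forming chains classed here with cartilage, did not reach that threshold. The median log2 fold change of the 8 was 1.03, and DESeq2 called 7 of them, against 2.36% of all genes higher. Their adjusted p values lay between 0.432 and 0.458 (edgeR quasi-likelihood test, Benjamini-Hochberg). Col1a1, the main chain of type I collagen (chr11:94936270-94951856, mm10), was at 1312, 886 and 1529 CPM in tumors 13, 18 and 25 and at 2663, 4002 and 2394 CPM in tumors 27, 29 and 36. Tumor 29, the only FSP1-Cre;NT3 tumor of the trunk, was the highest, and the log2 fold change was 1.28 ± 0.33 (SE). Its partner Col1a2 was at 2171, 1864 and 1735 CPM against 3567, 4469 and 3231 CPM (log2 fold change 0.97 ± 0.25).

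Col3a1, the chain of type III collagen, which is mixed into the fibrils of soft connective tissue, was at 2584, 3147 and 1810 CPM in Osx-Cre;NT3 and at 4346, 5131 and 5665 CPM in FSP1-Cre;NT3 tumors (log2 fold change 1.01 ± 0.30). Col3a1 and Col5a2 lie tail to tail on chromosome 1, 24624 bases apart. Type V collagen initiates and sets the width of type I fibrils. Its chain Col5a2 was the tightest of the class in the Osx-Cre;NT3 tumors, at 417, 401 and 402 CPM, and was at 596, 677 and 669 CPM in the others (log2 fold change 0.67 ± 0.18). Col5a1 was at 173, 131 and 223 CPM against 415, 348 and 408 CPM (1.15 ± 0.25), and Col5a3 at 30.9, 16.3 and 32.4 CPM against 100, 59.2 and 65.7 CPM (1.50 ± 0.34). None of the type I, III and V chains overlapped between the lines.

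The remaining fibrillar chains were at low levels. Col27a1 was at 7.49, 7.18 and 11.7 CPM against 20.1, 15.2 and 19.2 CPM, with a log2 fold change of 1.04 ± 0.29. Col24a1 was at 13.0, 9.39 and 7.35 CPM against 12.3, 21.2 and 20.8 CPM. It was the gene of the fibrillar class that overlapped between the lines in CPM, though not in RPKM, and DESeq2 did not call it.

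The beaded filament genes, all of type VI collagen, had the largest median log2 fold change of the 6 classes, 1.75. All 6 were past the unadjusted threshold, against 10.8% of all genes. DESeq2 called 5 of them, against 2.74% of all genes. Col6a1 was at 454, 305 and 264 CPM in Osx-Cre;NT3 tumors and at 1032, 1053 and 792 CPM in FSP1-Cre;NT3 tumors (log2 fold change 1.49 ± 0.28). Col6a2 was at 357, 208 and 205 CPM against 857, 898 and 610 CPM (1.62 ± 0.31). Col6a3, the longest of the 3 classical chains, was at 311, 247 and 278 CPM against 719, 614 and 580 CPM (1.19 ± 0.20). Their adjusted p values were not below 0.412 (edgeR quasi-likelihood test, Benjamini-Hochberg), and none of the 3 overlapped between the lines.

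Col6a4, Col6a5 and Col6a6 encode alternative partners for the first 2 chains and lie in a row on chromosome 9. Col6a4 was at 2.40, 3.01 and 3.04 CPM against 12.7, 7.21 and 11.4 CPM (log2 fold change 1.89 ± 0.34). Col6a5 was at 2.15, 1.27 and 0.845 CPM against 5.56, 7.16 and 12.9 CPM (2.59 ± 0.52). For both genes every FSP1-Cre;NT3 tumor was higher than every Osx-Cre;NT3 tumor. Col6a6 was at 0.083, 0.182 and 0.169 CPM against 0.553, 0.154 and 1.00 CPM, so that tumor 29 lay among the Osx-Cre;NT3 tumors. Its log2 fold change of 1.93 ± 0.77 became 1.24 without tumor 36 and 0.062 with site as a covariate.

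The FACIT genes were divided. Col16a1, a chain found on fibrils and near basement membranes, was at 79.0, 68.4 and 63.7 CPM against 158, 208 and 168 CPM. Its log2 fold change was 1.34 ± 0.19, with an adjusted p of 0.359 by the edgeR quasi-likelihood test with Benjamini-Hochberg adjustment and 2.8e-05 by DESeq2. Col14a1, which binds fibril surfaces in skin and tendon, was at 42.3, 41.8 and 33.9 CPM against 72.8, 107 and 101 CPM (1.25 ± 0.22). Col20a1 was at 0.497, 0.676 and 1.10 CPM against 1.75, 2.05 and 2.28 CPM (1.42 ± 0.45). These 3 did not overlap between the lines. Col12a1, which also binds fibrils and had the most RNA of the class, was at 233, 321 and 509 CPM against 505, 242 and 450 CPM, with a log2 fold change of 0.17 ± 0.39. Within each line it spanned about the same range.

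Of the basement membrane genes, 3 of 9 were past the unadjusted threshold and 0 were called by DESeq2, against 10.8% and 2.74% of all genes. Col4a1 was at 680, 284 and 1158 CPM against 979, 793 and 642 CPM, and Col4a2 at 374, 120 and 799 CPM against 647, 546 and 394 CPM. Their log2 fold changes were 0.19 ± 0.49 and 0.30 ± 0.62, and the values of the FSP1-Cre;NT3 tumors fell within the range of the Osx-Cre;NT3 tumors. The genes start head to head on chromosome 8, 2 bases apart, and were lowest in the same tumor, 18.

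The 3 genes past the threshold were Col7a1, Col15a1 and Col4a6. Col7a1, which forms the anchoring fibrils that tie the epidermal basement membrane to the dermis, was at 233, 73.4 and 181 CPM against 397, 530 and 259 CPM (log2 fold change 1.28 ± 0.47). Col15a1 was at 54.0, 15.6 and 67.2 CPM against 183, 127 and 118 CPM (1.65 ± 0.52). Col4a6 was at 1.03, 0.143 and 0.225 CPM against 1.23, 1.49 and 3.47 CPM (2.16 ± 0.88, and from 1.57 without tumor 36 to 3.48 without tumor 13). None of the 3 overlapped between the lines, although Col4a6 in tumor 13 came close. Col4a6 lies head to head with Col4a5 on chromosome X, 1342 bases apart, and Col4a5 had a log2 fold change of -0.78 ± 0.41.

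Summed endothelial markers (8 genes) were at 310, 153 and 372 CPM in Osx-Cre;NT3 tumors and at 540, 398 and 435 CPM in FSP1-Cre;NT3 tumors, and none of the 8 was at 0. Their sum was lowest in tumor 18, as was that of the basement membrane genes. Their part in the basement membrane values was not tested.

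Cartilage genes were scarce. Col11a1, whose chain also joins type V in soft tissue, was at 67.7, 21.6 and 21.6 CPM against 59.2, 90.2 and 42.6 CPM (log2 fold change 0.79 ± 0.53). Col2a1, the main collagen of cartilage, was at 5.88, 2.75 and 6.90 CPM against 8.66, 11.8 and 2.53 CPM (0.57 ± 0.62), and Col9a3 at 2.94, 1.77 and 5.94 CPM against 1.87, 1.87 and 1.47 CPM (-1.03 ± 0.52). For all 3 the lines overlapped. The span of Col9a3 overlaps that of Tcfl5, so reads of these genes may not be told apart where the exons meet.

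Col10a1, the collagen of hypertrophic cartilage, was lower in FSP1-Cre;NT3 tumors, at 0.153, 0.282 and 0.156 CPM against 1.08, 0.520 and 1.35 CPM in Osx-Cre;NT3 tumors. The log2 fold change was -2.30 ± 0.57, and DESeq2 called it (adjusted p = 0.024). The lines did not overlap, but all values were low and the gene lies within the span of Nt5dc1, so reads of the 2 genes may not be told apart where the exons meet. Col9a1 was too low to be tested. It had 0 counts in all 3 Osx-Cre;NT3 tumors, which allows up to 0.0184 to 0.0579 CPM, and was at 0.153, 0.026 and 0.063 CPM in FSP1-Cre;NT3 tumors.

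Among the short chain and transmembrane genes Col8a1, a network collagen of vessel walls and other tissues, had the most RNA, at 50.8, 143 and 120 CPM against 108, 46.5 and 92.4 CPM (log2 fold change -0.34 ± 0.46). Col8a2 (0.19 ± 0.36) and the transmembrane Col13a1 (-0.30 ± 0.52) likewise lay within 1 SE of 0. Col23a1, a transmembrane collagen, was at 3.31, 12.0 and 4.62 CPM against 13.0, 13.4 and 25.6 CPM (1.38 ± 0.55). Its log2 fold change was 2.12 without tumor 18, 0.99 without tumor 36 and 1.01 with site as a covariate. Col28a1 was at 0.290, 0.507 and 0.535 CPM against 1.66, 0.795 and 6.13 CPM (2.68 ± 0.82), and tumor 36 was far above the rest. The log2 fold change of Col28a1 was 1.45 without tumor 36 and 0.83 with site as a covariate. Col25a1, a transmembrane collagen of neurons, was at 0.538, 0.377 and 0.986 CPM against 0.246, 0.154 and 0.250 CPM (-1.54 ± 0.56).

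The remaining 9 genes, including Col9a1 given above, were Col18a1, Col4a3, Col4a4 and Col4a5 of basement membranes, Col19a1 and Col22a1 of the FACIT class, and Col9a1, Col9a2 and Col11a2 of cartilage. Their mean levels ran from 0.0089 RPKM for Col9a1 to 22.3 RPKM for Col18a1, and 0 of the 8 that were tested reached an unadjusted p under 0.05 between the lines.

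The genes that act on collagen after transcription were divided by step. At an unadjusted p under 0.05, 7.31% of all genes had higher values in FSP1-Cre;NT3 tumors and 3.47% lower ones, which is the background for the 4 lists that follow. Of 19 genes of hydroxylation and folding, 3 were higher and 0 were lower: P3h1 and P3h3, which are prolyl 3-hydroxylases, and Fkbp10, a folding factor. Their log2 fold changes were 0.68 ± 0.19, 0.58 ± 0.24 and 0.54 ± 0.20. The sum of the 19 genes lay between 1536 and 1622 CPM in Osx-Cre;NT3 and between 1610 and 1802 CPM in FSP1-Cre;NT3 tumors, so that the ranges overlapped.

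Of 12 tested genes of procollagen cleavage and crosslinking, 6 were higher and 0 were lower at an unadjusted p under 0.05. Adamts2, which cuts off the amino end of procollagen, was at 45.2 ± 7.81 CPM in Osx-Cre;NT3 and at 90.1 ± 7.83 CPM in FSP1-Cre;NT3 tumors (log2 fold change 1.00 ± 0.20). Loxl2, a lysyl oxidase that crosslinks collagen, was at 77.1 ± 7.83 CPM against 145 ± 25.1 CPM (0.91 ± 0.20). The others were Pcolce and Pcolce2, which enhance procollagen cleavage, and the lysyl oxidases Lox and Loxl1. The summed list lay between 377 and 380 CPM in the first line and between 565 and 699 CPM in the second.

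Among collagen receptors 2 of 9 tested were higher: Ddr2, a receptor kinase for fibrillar collagen (1.63 ± 0.35), and Mrc2, which takes up collagen for degradation (0.67 ± 0.17). Of the 8 fibril-bound proteoglycans 4 were higher, Dcn, Bgn, Kera and Prelp, and their sum was between 586 and 1332 CPM against between 1991 and 2457 CPM. Decorin, the product of Dcn, coats fibrils, and its log2 fold change was 1.52 ± 0.59. No gene of these 4 lists passed an adjusted p under 0.05 by the edgeR quasi-likelihood test with Benjamini-Hochberg adjustment.

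**Figure D4:**
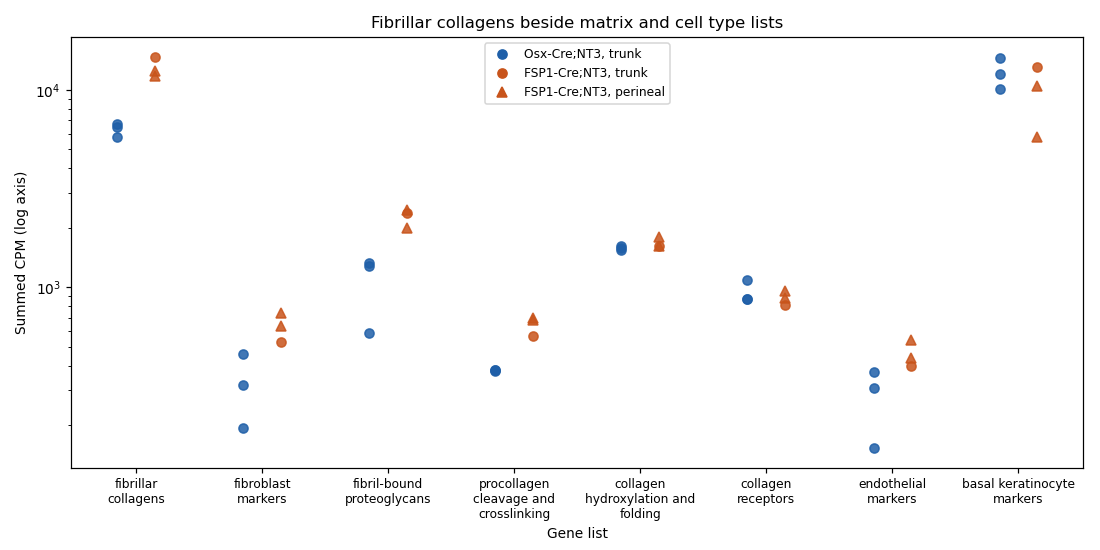
Summed CPM on a log axis of the fibrillar collagen genes and of 7 gene lists, 1 point for each tumor, blue for Osx-Cre;NT3 and orange for FSP1-Cre;NT3, circles for trunk and triangles for perineal tumors. The lines do not overlap for fibrillar collagens, fibroblast markers, fibril-bound proteoglycans, cleavage and crosslinking genes and endothelial markers, and they overlap for the other 3 lists.

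Summed fibroblast markers, like the summed fibrillar genes, were higher in every FSP1-Cre;NT3 tumor than in any Osx-Cre;NT3 tumor. Within the lines the order of the tumors differed between these sums. Of 8 markers, 4 were higher at an unadjusted p under 0.05 (Pdgfra, Pdgfrb, Fbln1 and Twist2), against 7.31% of all genes. None was at 0, and the median log2 fold change was 0.89. Their sum was 319, 459 and 192 CPM in tumors 13, 18 and 25 and 637, 525 and 739 CPM in tumors 27, 29 and 36. Summed fibrillar CPM in the same order was 6709, 6462 and 5751, and 11719, 14722 and 12474. Tumor 29 had the highest fibrillar and the lowest marker sum of its line, while tumor 25 had the lowest of both in its line. Summed fibrillar CPM divided by this sum was 21.0, 14.1 and 29.9 in Osx-Cre;NT3 and 18.4, 28.1 and 16.9 in FSP1-Cre;NT3 tumors. The means of 21.7 ± 7.94 and 21.1 ± 6.07 lay close together and the lines overlapped on this scale, a ratio chosen after the values had been seen. The part of fibroblast content in the collagen values was not tested further.

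Other marker lists also differed between the lines. At an unadjusted p under 0.05, where 7.31% of all genes were higher and 3.47% lower, 3 of 8 endothelial, 3 of 8 smooth muscle and myoepithelial, 3 of 6 adipocyte, 2 of 5 Schwann cell, 1 of 6 tested chondrocyte and 1 of 4 tested osteoblast markers were higher in FSP1-Cre;NT3 tumors and 0 were lower. Of 6 macrophage markers 1 was higher and 1 lower, and of the 6 basal keratinocyte, 6 simple epithelium and 6 skeletal muscle markers 0 were past the threshold. The median log2 fold changes of the adipocyte (3.29), smooth muscle and myoepithelial (1.71), simple epithelium (1.42) and Schwann cell markers (1.31) exceeded that of the fibroblast markers. The sums of FSP1-Cre;NT3 tumor 29 did not lie above the Osx-Cre;NT3 range in any of these lists. Adipocyte markers summed to 4.82 CPM in tumor 29, against 3.02 to 17.0 CPM, and smooth muscle and myoepithelial markers to 514, against 418 to 1007 CPM. Simple epithelium markers summed to 621, against 1028 to 1188 CPM, and Schwann cell markers to 96.6, against 82.2 to 150 CPM.

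Tumor 36 stood high in summed simple epithelium markers (4759 CPM, against 621 to 1188 CPM in the others) and smooth muscle and myoepithelial markers (2656 CPM, against 418 to 1007 CPM). Of the 24 collagen genes past the unadjusted threshold between the lines, Col28a1, Col6a6 and Col4a6 changed in fold by more than 1.5 times without this tumor, each to a smaller fold. Col1a1 went from 1.28 to 1.42 on the log2 scale and Col3a1 from 1.01 to 0.91. The part of these cell types in the collagen values was not tested.

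The comparison of sites set the 2 perineal tumors, both FSP1-Cre;NT3, against the 4 trunk tumors. At an adjusted p under 0.05, 0 of 41 collagen genes passed (edgeR quasi-likelihood test, Benjamini-Hochberg over 16971 genes), and the background was 0%. At an unadjusted p under 0.05, 7 of 41 were past the threshold, against 10.5% of all genes. Of these 6 were higher in perineal tumors (Col28a1, Col6a6, Col6a4, Col5a3, Col27a1 and Col5a1), where the background was 8.88%, and 1 was lower (Col10a1), where it was 1.63%. DESeq2 called 2 of 41, Col28a1 and Col6a6, both higher, against 4.1% of all genes (3.87% higher and 0.232% lower). In all, 31 of 41 genes had a log2 fold change above 0, against 48.5% of all genes.

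Marker lists differed between the sites as well. At the same threshold 6 of 6 adipocyte, 5 of 8 smooth muscle and myoepithelial, 4 of 6 simple epithelium, 2 of 8 fibroblast, 2 of 8 endothelial, 2 of 5 Schwann cell, 1 of 6 macrophage and 1 of 6 tested chondrocyte markers were higher in perineal tumors, against 8.88% of all genes, and 0 were lower. The median log2 fold changes of the first 4 of these lists were 3.97, 2.02, 1.91 and 0.80. Of the basal keratinocyte, skeletal muscle and tested osteoblast markers 0 were past the threshold. Their part in the collagen values was not tested.

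This comparison shares its tumors with that of the lines. Col28a1 averaged 3.89 CPM in perineal and 0.532 CPM in trunk tumors, a log2 fold change of 2.86 ± 0.64 between sites (1.63 without tumor 36 and 3.48 without tumor 27) beside 2.68 ± 0.82 between lines. Col6a6 gave 2.37 ± 0.59 beside 1.93 ± 0.77, and Col10a1 gave -2.37 ± 0.84 beside -2.30 ± 0.57. For Col1a1 the difference between sites was 0.38 ± 0.59 beside 1.28 ± 0.33 between lines, and for Col6a1 it was 0.81 ± 0.56 beside 1.49 ± 0.28.

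With line as a covariate, the site difference rested on tumors 27 and 36 against tumor 29 alone. The differences of Col6a4, Col10a1, Col5a1 and Col5a3 became 0.74, -0.86, 0.24 and 0.48 on the log2 scale. The median log2 fold change went from 0.41 to -0.032. The comparison of lines with site as a covariate kept 13 genes higher and 0 lower, against 1.79% of all genes higher. On the trunk alone, where tumor 29 stood against the 3 Osx-Cre;NT3 tumors, 10 genes were higher and 0 were lower, against 1.5% of all genes higher. These 10 were Col1a1, Col1a2, Col6a1 to Col6a5, Col7a1, Col14a1 and Col16a1. Both perineal tumors are FSP1-Cre;NT3, so the fit with site as a covariate also set tumor 29 alone against the 3 Osx-Cre;NT3 tumors. It is the same contrast as the trunk fit and not separate evidence. The log2 fold change of Col1a1 was 1.69 with the covariate and 1.68 on the trunk. With 1 tumor on 1 side, both fits assume that tumor 29 varies as the others do.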

How the data were processed

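Per the labels, RNA came from excised whole tumors. Reads were, by the study's methods, trimmed, aligned to mm10 with HISAT2 and counted with featureCounts, whereas the submitters' processing notes list TopHat2 2.0.6 and HTSeq. Gene annotation and strand setting are not given in the sources used here. The authors deposited raw counts per gene without normalization, and RPKM values, whose library totals exceed the summed gene counts, which make up 77.2% to 81.5% of them. RPKM was used to compare genes, for the class sums by tumor and line and for the chain ratios. All sample columns were used. Of 42 members, 35 had positions within 1000 bases of GENCODE M21 (GRCm38).

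Lines and sites were compared with edgeR 4.0.16 in R 4.3.3 (filterByExpr, TMM, glmQLFit, glmQLFTest, no covariate), with Benjamini-Hochberg adjustment over all genes tested and a threshold of 0.05. SEs are the log2 fold change divided by the root of F. CPM are TMM-scaled. DESeq2 1.42.0 was the alternative tool. Its filtering level was set to 0.05 after a first run at its default had been seen. The scripts were tested on simulated data. Each tumor is 1 mouse, so replicates are animals. At these depths precision is limited by having 3 tumors a line. A count of 0 allows 3 counts, 0.0184 to 0.0579 CPM, or more if pairs were counted by both ends, for counting error only. Alternatives were other scaling, filters, halved counts, covariates, trunk or FSP1-Cre;NT3 tumors alone and each tumor left out.

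Genes with values by tumor were the 3 highest of each class by mean RPKM and all with an unadjusted p under 0.05 in either comparison, 33 in all. The members, classes and 15 lists (124 genes) were chosen with earlier results of these data known. The motifs, the promoters printed and the ratio to fibroblast markers were chosen after values had been seen.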

Additional observations from a re-analysis of the deposited data

Results flagged for a closer look

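Dixon's test for a tumor far from the other 5 was applied to log2 values of the 33 collagen genes given by tumor, of 7 collagen class sums and of 15 list sums, 55 items in all. The list sums were added after their values had been seen. Chance alone marks about 1 in 20, or 2.75 of 55. It marked 0 of the collagen genes and class sums and 2 list sums, both high in tumor 36. The simple epithelium markers of that tumor summed to 12.2 on the log2 CPM scale, 4759 CPM, and the nearest tumor was at 1188 CPM. The hydroxylation and folding genes summed to 10.8 on the log2 CPM scale, 1802 CPM, and the nearest tumor was at 1622 CPM. The 6 tumors were pooled over both lines, so a difference between lines widens the range against which a tumor is judged.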

How the results depend on the processing

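Between the lines, edgeR called 0 collagen genes and 0 genes in all at an adjusted p under 0.05, and DESeq2 called 16 and 452, at its default filtering level as well, an alternative chosen after seeing the data. The 22 genes higher at an unadjusted p under 0.05 were 13 with site as a covariate and 10 on the trunk alone, and the 2 lower were 0 in both. Leaving out each tumor gave 17 to 19 higher and 1 to 3 lower, 0 adjusted calls and a median log2 fold change of 0.94 to 1.07. With library sizes alone the median over all genes shifted to 0.13 between lines, beside 1.15 over the collagen genes, and to 0.076 between sites.

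Between the sites, DESeq2 called 2 collagen genes and 725 genes in all (3 and 738 at its default level). With line as a covariate the median log2 fold change was -0.032, and in FSP1-Cre;NT3 tumors alone it was -0.0083. Both rest on tumors 27 and 36 against tumor 29 alone. At an unadjusted p under 0.05 by edgeR, 6 collagen genes were higher and 1 lower in the main fit. Leaving out each tumor gave 0 to 1 collagen genes and 0 to 567 genes in all with an adjusted p under 0.05, 2 to 18 higher and 0 to 2 lower. Without tumor 27 the call was Col28a1, and the 567 genes arose in that fit. Without tumor 25 there were 2. Without tumor 29 site and line are the same split, which gave the 18. Without tumor 36, 3 were higher.

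Of the 33 genes given by tumor, 5 turned direction between the lines under some alternative, all with a log2 fold change within 1 SE of 0. Col12a1 went to -0.55 with site as a covariate and on the trunk alone, and ran from -0.063 (without tumor 13) to 0.47 as each tumor was left out, with -0.050 without tumor 27. Col4a1 ran from -0.20 to 0.70 and Col4a2 from -0.15 to 1.07, both lowest without tumor 18, and Col13a1 from -0.71 to 0.12, highest without tumor 25. Col8a2 went to -0.017 with the covariate and -0.022 on the trunk, and ran from -0.26 (without tumor 27) to 0.44. Of the other 9, as each tumor was left out, Col11a2 (0.43) went as low as -0.022, Col18a1 (0.35) as low as -0.073 and Col22a1 (-0.024) as high as 0.39. The cause was not tested. Class sums and chain ratios moved by less than 1 SD over tumors under every alternative run. No paired analysis was possible because the groups share no replicate numbers.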
